A study of Mus musculus with 29 samples.

Results

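The glycolysis and hypoxia genes are 34 genes picked by name: the glucose and lactate carriers, the enzymes from glucose to lactate, the mitophagy receptors, further known targets of hypoxia, and the oxygen-sensing machinery itself. The choice was made with earlier results of these data known, so member counts set beside the share of all genes are descriptive. The member names matched 35 of the 28229 rows of the count table, because the name Aldoa stands on 2 rows. Of these, 34 rows, covering 33 members, passed the filter on low counts that left 14935 genes to test. The member that did not pass was Car9, a cell-surface carbonic anhydrase, with 0 to 9 counts a library. Adm, with 1 to 68 counts, and Aldoc, with 0 to 12, passed close to that floor, and the second Aldoa row, with 3 to 20 counts, was called in no comparison.

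The samples came from NMM, an NRAS-mutant melanoma line of the mouse, in 29 mRNA-sequencing libraries. Cells were first kept for 2, 6, 12 or 24 h in plain medium, in the T cell cytokine IFNγ (interferon gamma) at 100 ng/ml, or in TGFβ (transforming growth factor beta) at 10 ng/ml. After 5 washes with PBS they were stimulated again for 24 h before RNA was taken. Medium came first in the groups medium then medium (called medium alone), medium then TGFβ and medium then IFNγ. A cytokine came first in TGFβ then medium, in IFNγ then medium and in the crossed sequences TGFβ then IFNγ or IFNγ then TGFβ. Each of these 7 groups has 4 libraries, 1 per duration, and 1 further library received medium for 24 h and then a mix of both cytokines. All groups share the line, its genotype and the wash. The labels give no other replicates, so the libraries of different duration were taken as replicates (n = 4). P-values of comparisons between groups measure the spread left after terms for group and duration, pooled over all groups. That spread may be technical in part.

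Glycolysis splits glucose into pyruvate in the cytosol and yields ATP without oxygen. Hexokinase traps glucose as its phosphate, phosphofructokinase commits it, and lactate dehydrogenase turns pyruvate into lactate, which leaves the cell through monocarboxylate carriers. Most of these genes are targets of hypoxia-inducible factor (HIF): when oxygen is scarce, the prolyl hydroxylases encoded by Egln1 and Egln3 stop marking HIF-1α for degradation, and HIF binds short DNA elements with the core letters ACGTG or GCGTG. Egln3 is a HIF target as well, which closes a feedback loop. Melanomas, like many tumours, are known for glycolysis that runs even in the presence of oxygen, and the labels name no change of oxygen in these cultures.

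Total counts ran from 17179530 to 23668015 a library, and mitochondrially encoded transcripts took 0.596% to 1.31%. The medium library of 6 h stood apart from the other medium libraries: the SD of its log2 differences from them was 0.596, its mitochondrial share was 1.24%, and the mean level of the members was the lowest of all libraries. Of 10 melanocyte markers 6 were in the table. Mitf (median 12.8 CPM, counts scaled to library size) and Gpnmb (83.2 CPM) were clearly present, and Pmel, Sox10, Kit and Ednrb were at or near 0. The leukocyte marker Ptprc never passed 0.172 CPM. The summed level of the 6 fibroblast markers in the table, nearly all of it Col3a1 and Dcn with Col1a1 at or below 0.751 CPM, was 577 to 1944 CPM in medium, 195 to 234 CPM in medium then IFNγ and 476 to 607 CPM in medium then TGFβ. The part of these shifts in the results was not tested.

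Per kilobase of exon, Pkm (pyruvate kinase) was the most abundant member, with a median of 393 CPM per kb over the 29 libraries. It was followed by Pgk1 (phosphoglycerate kinase, 312), Aldoa (aldolase, 295), Ldha (lactate dehydrogenase A, 257), Eno1 (enolase, 182) and Tpi1 (triosephosphate isomerase, 114 CPM per kb). Hif1a, which encodes the regulated HIF subunit, had 66.0 CPM per kb, Ddit4 44.1, the glucose carrier Slc2a1 43.6 and P4ha1 42.8 CPM per kb. Gpi1 (51.9), Hk1 (35.4), Hk2 (34), Bnip3 (29.3), Pgam1 (28.5), Mxi1 (23.9), Gapdh (23.6), Bnip3l (23.2), Egln1 (21.9) and Egln3 (19.7 CPM per kb) formed the middle. Below them lay Pfkl (15.7), Ndrg1 (13.6), Ldhb (13.4), Pfkm (8.49), Pfkp (6.01), the lactate carrier gene Slc16a3 (5.69), Pdk1 (5.18), P4ha2 (4.05) and Ankrd37 (2.58 CPM per kb). Eno2 (0.807), Pfkfb3 (0.656) and Adm (0.230 CPM per kb) were the lowest members given a level here. Reads of near-identical copies may have been split or dropped by the counting, so levels of Gapdh, Pgam1, Eno1, Ldha, Tpi1 and Pgk1 are uncertain to that extent. Copies were looked for only by names built on those of the members, so copies under other names were not seen. Among the copies found, Eno1b had most reads, with 581 to 1751 counts, and no processed copy passed 66.

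From the lowest to the highest of the 29 libraries, Hk1 spanned the smallest ratio, 1.41, and Gpi1 and Mxi1 spanned 1.52 each. Of the 6 enzymes most abundant per kilobase, Tpi1 spanned 1.57, Aldoa 1.65, Pkm 1.69, Pgk1 1.98, Ldha 2.02 and Eno1 2.25. The widest ranges were those of Pfkfb3 and a few other low or stress-linked members: Pfkfb3 spanned 6.58, Ddit4 5.52, Eno2 5.46, Ankrd37 4.79, Egln3 4.77 and Ndrg1 4.75. Ldhb (3.37), Pdk1 (3.25), Pfkp (3.16), Bnip3 (2.96) and Hk2 (2.90) came next.

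Promoters are shown because elements bound by HIF are what most of these genes are known to share. RefSeq promoter windows on GRCm38.p6, 250 bases upstream of a start, were matched for 32 members, which have 47 windows between them. Bnip3l and Ndrg1 had no window. Capitals mark ACGTG or GCGTG on either strand, so that the reverse strand reads CACGT or CACGC, and overlapping matches such as CACGTG count on both strands.
Bnip3, chr7:138909507-138909756, minus strand: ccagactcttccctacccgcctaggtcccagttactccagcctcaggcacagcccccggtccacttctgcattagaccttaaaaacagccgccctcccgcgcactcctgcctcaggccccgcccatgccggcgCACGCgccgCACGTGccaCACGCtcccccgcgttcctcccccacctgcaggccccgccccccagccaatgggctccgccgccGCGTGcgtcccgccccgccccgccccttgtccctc
Pgk1, chrX:106186850-106187099, plus strand: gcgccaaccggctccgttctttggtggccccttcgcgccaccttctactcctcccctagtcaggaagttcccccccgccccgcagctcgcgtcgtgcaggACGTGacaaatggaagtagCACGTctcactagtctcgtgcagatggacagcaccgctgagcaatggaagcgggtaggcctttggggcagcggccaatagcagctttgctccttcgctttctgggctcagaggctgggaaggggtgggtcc
Hk2, chr6:82774455-82774704, minus strand: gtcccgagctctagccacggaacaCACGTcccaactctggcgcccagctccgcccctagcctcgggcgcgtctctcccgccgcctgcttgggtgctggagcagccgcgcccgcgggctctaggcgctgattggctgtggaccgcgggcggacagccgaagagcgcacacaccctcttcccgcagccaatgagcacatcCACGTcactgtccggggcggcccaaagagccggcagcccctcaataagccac
Ldha, chr7:46845554-46845803, plus strand: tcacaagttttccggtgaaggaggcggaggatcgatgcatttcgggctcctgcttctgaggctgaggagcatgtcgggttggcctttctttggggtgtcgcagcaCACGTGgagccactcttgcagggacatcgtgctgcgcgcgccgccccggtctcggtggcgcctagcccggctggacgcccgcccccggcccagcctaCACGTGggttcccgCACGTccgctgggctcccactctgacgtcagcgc
Ldhb, chr6:142507958-142508207, minus strand: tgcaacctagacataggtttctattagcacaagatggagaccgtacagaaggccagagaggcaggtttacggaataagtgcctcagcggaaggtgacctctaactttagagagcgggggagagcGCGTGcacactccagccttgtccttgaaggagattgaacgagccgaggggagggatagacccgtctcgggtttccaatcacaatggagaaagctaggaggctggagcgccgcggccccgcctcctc
Bnip3 holds 5 matches in this window, Ldha 5, Hk2 2 and Pgk1 2, whereas Ldhb holds 1, a GCGTG. The Ldha window is the upstream one of 2, and its transcribed end lies in no GENCODE transcript of the gene. The other Ldha window, chr7:46846832-46847081, whose transcribed end does lie in one, holds 1 match, a GCGTG, as the Ldhb window does.

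ACGTG occurred in 24 of the 47 member windows, or 51.06%, against 21.68% of the windows of all tested genes and 16.57% of all promoters of the table. Windows of the same gene can overlap, as some of Aldoa do, so the same letters can count more than once. Members were picked in part as known targets of hypoxia, so a higher share could be foreseen. GCGTG, a more frequent string in GC-rich promoters, occurred in 51.06% of member windows and 44.41% of those of tested genes. Either string was present in 80.85% of member windows, 55.57% of windows of tested genes and 38.6% of all, and 29 of the 32 matched members had at least 1 such window. The SMAD element CAGAC, that of TGFβ signalling, was found in 38.3% of member windows against 40.43% for tested genes. A match is a description of the letters, not a site of binding.

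The members moved together with the duration of the first stimulation. In each of the 6 stimulated sequences their mean level was higher in both the 12 and 24 h libraries than in either the 2 or the 6 h library, and in medium alone these libraries overlapped. In bulk RNA a lower level in each cell and a smaller share of cells with the transcript cannot be told apart. The mean log2 CPM over the 34 tested rows at 2, 6, 12 and 24 h was 5.78, 5.84, 6.24 and 6.02 in medium then IFNγ and 5.81, 5.79, 6.32 and 6.22 in medium then TGFβ. It was 6.01, 5.96, 6.28 and 6.34 in IFNγ then medium, and 5.87, 5.87, 6.22 and 6.12 in TGFβ then medium. TGFβ then IFNγ had 5.72, 5.73, 6.14 and 5.93, and IFNγ then TGFβ had 5.90, 5.95, 6.29 and 6.27. Medium alone had 5.89, 5.59, 5.73 and 5.88, where the long and short libraries overlapped. The median difference over the rows, 12 and 24 h minus 2 and 6 h, was still 0.116 log2 units in medium, against 0.012 for all genes. In the stimulated sequences it was 0.199 to 0.330.

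**Figure D1:**
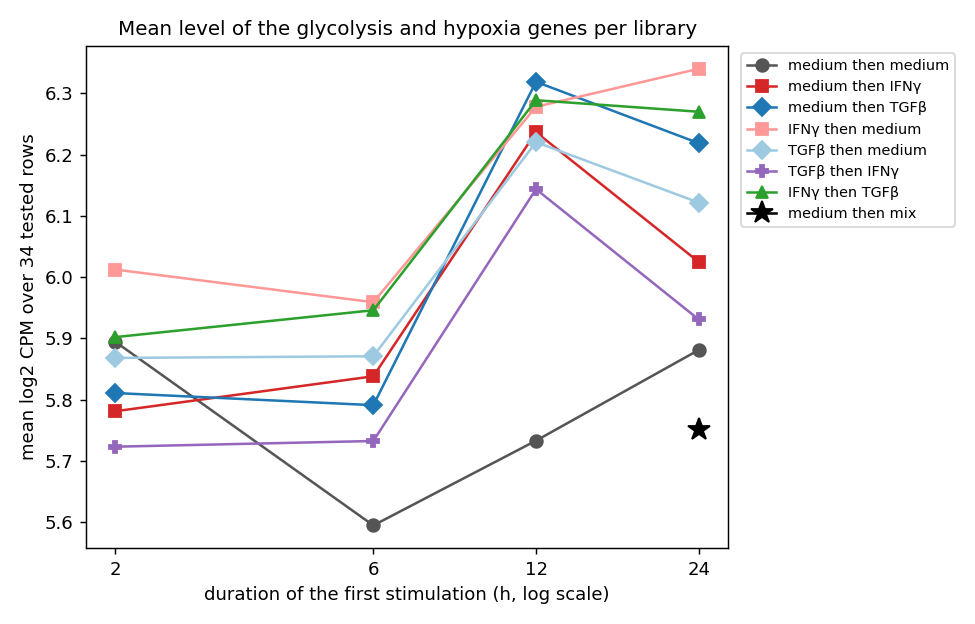
Mean log2 CPM over the 34 tested rows of the glycolysis and hypoxia genes (vertical axis) against the duration of the first stimulation in hours (horizontal axis, log scale), 1 point per library and 1 line per sequence of stimuli. The 6 stimulated sequences step up between 6 and 12 h, medium stays between 5.59 and 5.89, and the single mix library lies at 5.75.

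In medium then IFNγ, 27 of the 34 rows had both long libraries above both short ones, against 24.8% of all tested genes. The count was 26 in medium then TGFβ (26.4% of all genes), 24 in IFNγ then medium (21.9%), 25 in TGFβ then medium (26.2%), 26 in TGFβ then IFNγ (27.8%) and 24 in IFNγ then TGFβ (16.8%, with 18.6% of all genes below). In medium alone 3 rows lay above, against 21.1% of all genes, and 6 lay below, against 19.5%. Libraries of 1 duration share their total time in culture and whatever else was done together, and duration cannot be told apart from these.

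**Figure D2:**
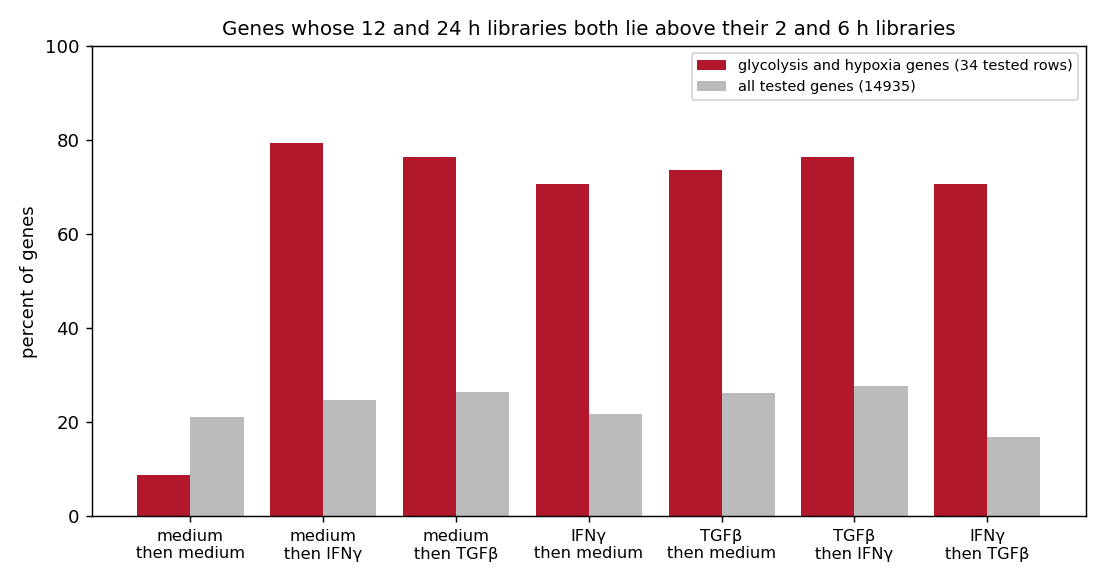
Percent of genes (vertical axis) whose 12 and 24 h libraries both lie above their 2 and 6 h libraries, per sequence of stimuli (horizontal axis), for the 34 tested rows of the glycolysis and hypoxia genes (red) and all 14935 tested genes (grey). The red bars reach 70.59% to 79.41% in the 6 stimulated sequences and 8.824% in medium, while the grey bars stay between 16.83% and 27.81%.

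With a common slope on the log2 of the duration, 20 members rose and 1 fell, while edgeR called 5.87% of all genes higher and 5.72% lower. The median over the 34 tested rows was 0.070 log2 units per doubling of the duration. The fit took the 29 libraries as independent, although they have only 4 durations. Whatever libraries of 1 duration share could make its errors and p-values too small. By role, both carriers rose, as did 5 of 11 rows of upper glycolysis, 4 of 6 genes of lower glycolysis, 2 of 3 for the fate of pyruvate, 1 of 2 mitophagy receptors, 4 of 7 other hypoxia targets and 2 of 3 oxygen-sensing genes. The steepest were Adm, which encodes the vasodilator peptide adrenomedullin (0.78 ± 0.18 SE, adjusted p = 0.0108), Ankrd37, a known HIF target (0.27 ± 0.076, adjusted p = 0.0263), and Pfkfb3, whose product makes the activator of phosphofructokinase (0.25 ± 0.049, adjusted p = 0.00609). Bnip3 rose by 0.19 ± 0.039 per doubling (adjusted p = 0.00753), Pdk1 by 0.18 ± 0.040 (adjusted p = 0.00868), Ndrg1 by 0.18 ± 0.044 (adjusted p = 0.0159) and Egln3 by 0.18 ± 0.043 (adjusted p = 0.0151). Slc16a3 (0.16 ± 0.032), Pfkl (0.14 ± 0.027) and P4ha2 (0.13 ± 0.033) complete the 10 steepest, with adjusted p of 0.00744, 0.00691 and 0.0177. The member that fell was Ddit4, an inhibitor of the growth kinase mTORC1, at -0.11 ± 0.032 (adjusted p = 0.0322). With the 12 and 24 h libraries set against the 2 and 6 h libraries in place of a slope, chosen after seeing the data, 23 members rose and 2 fell, against 15.7% and 15.9% of all genes.

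Adm had at most 15 counts in any 2 or 6 h library. In medium then TGFβ its counts were 1, 1, 68 and 51 at 2, 6, 12 and 24 h, and in IFNγ then medium they were 14, 7, 59 and 61. In medium then IFNγ they were 4, 15, 62 and 17, while in medium alone they were 5, 6, 3 and 6. Pdk1, the kinase that keeps pyruvate out of the mitochondrial citrate cycle, had 33.7, 35.9, 63.2 and 59.7 CPM in medium then TGFβ. Its levels were 46.7, 45.5, 60.8 and 65.0 CPM in IFNγ then medium and 38.5, 43.4, 59.1 and 51.9 CPM in TGFβ then medium. Medium alone gave 39.4, 31.8, 35.6 and 37.5 CPM, so its long and short libraries overlapped there and were apart in those 3 sequences.

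Whether the step differed between stimulated sequences and medium was tested by the difference of the steps, a comparison added after seeing the data. The step was larger in stimulated cells for 3 members and smaller for 0, against 1.51% and 2.4% of all genes, and the fitted difference was above 0 for 27 of 34 rows, with a median of 0.20 against -0.01 for all genes. Pdk1 differed by 0.67 ± 0.13 on the log2 scale (adjusted p = 0.00599), Bnip3, a mitophagy receptor, by 0.76 (adjusted p = 0.0209), and Bnip3l, its paralogue, by 0.55 (adjusted p = 0.0250). Without the 12 h medium library no member was called, without that of 2 h 8 were, and without that of 6 h 3 were, of which 1, Pdk1, was the same. Within single sequences the step was called for 13 members in medium then TGFβ (2.6% of all genes higher), 10 in TGFβ then medium (2.52%), 7 in TGFβ then IFNγ (4.29%), 1 each in medium then IFNγ (0.0402%), IFNγ then medium (0.0201%) and IFNγ then TGFβ (0.0737%), and 0 in medium, where 5 had an unadjusted p below 0.05. With a slope on log2 duration in each sequence, the form of the trend test, no member was called by edgeR in any of the 7, where 1 (medium) to 11 (medium then TGFβ) had an unadjusted p below 0.05, with 198 genes called in TGFβ then medium, 31 in TGFβ then IFNγ, 1 in IFNγ then TGFβ and 0 in the other 4. The mitochondrial share of counts also moved with duration in some sequences: at 2, 6, 12 and 24 h it was 0.717%, 0.919%, 1.21% and 1.04% in medium then TGFβ and 0.714%, 0.814%, 0.749% and 0.676% in medium then IFNγ, and its part was not tested.

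**Figure D3:**
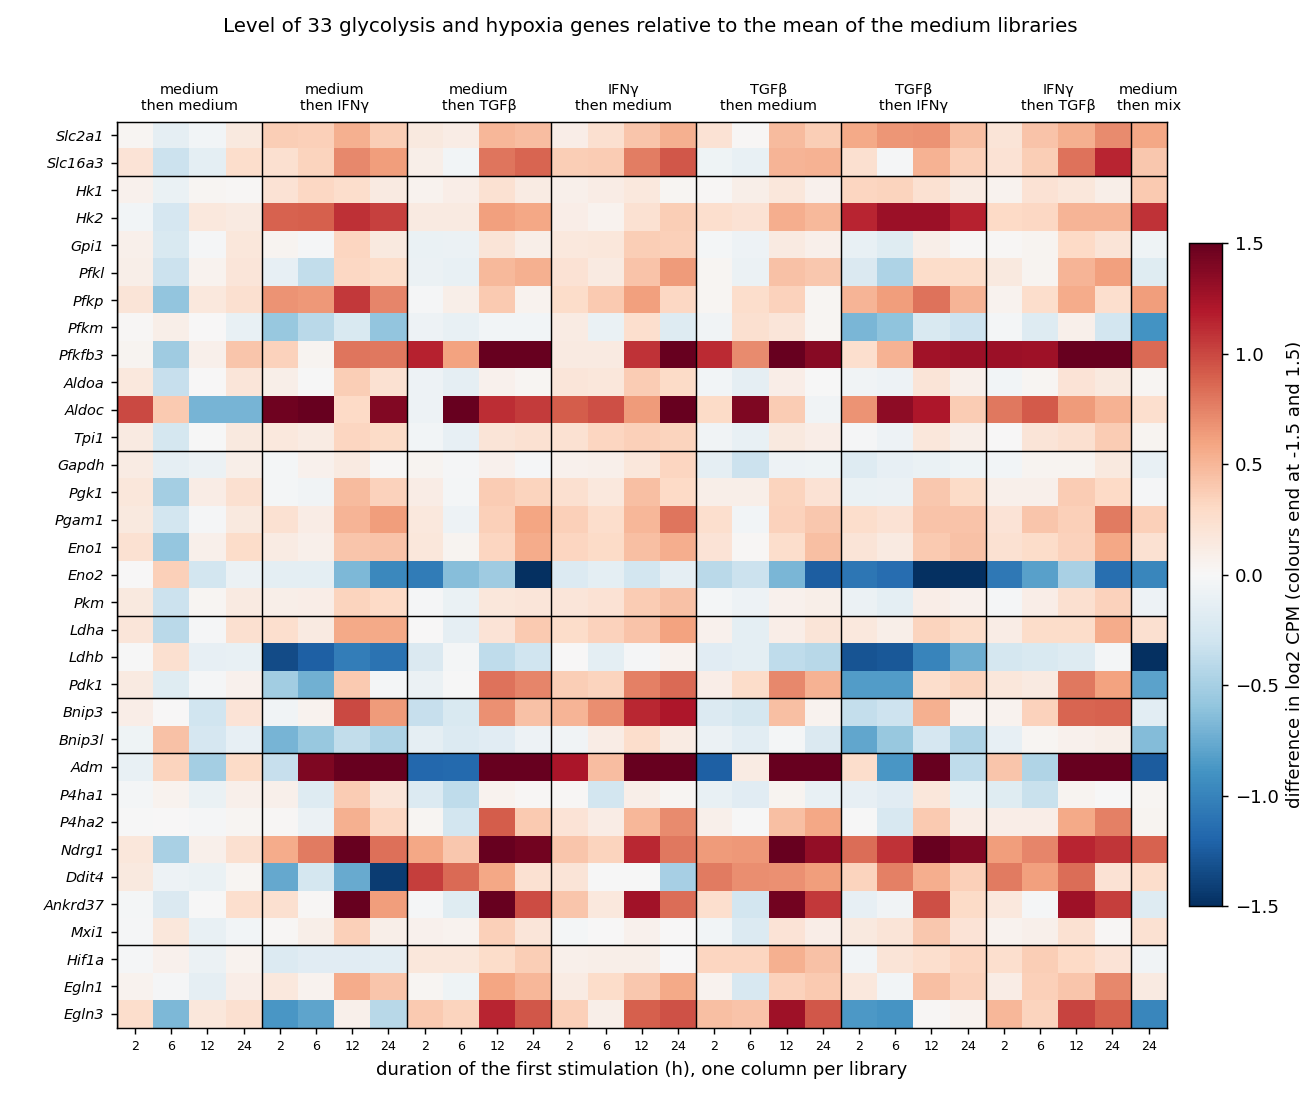
Difference in log2 CPM from the mean of the 4 medium libraries (colour, red higher and blue lower, ending at 1.5 in each direction) for the 33 members tested (rows, grouped by role, with the main Aldoa row) in each of the 29 libraries (columns, grouped by sequence and ordered by duration in hours). Hk2 is red and Ldhb blue in every library that ended in IFNγ or the mix, Pfkfb3 and Ndrg1 are red in every library that ended in or began with TGFβ, and the 12 and 24 h columns are redder than the 2 and 6 h columns in the stimulated sequences.

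IFNγ in the last 24 h shifted the balance between isoenzymes of glycolysis. Hk2, the inducible hexokinase, and Pfkp, the platelet phosphofructokinase, rose, Ldhb, the lactate dehydrogenase that favours pyruvate, fell by more than 1 log2 unit, and Pfkm, the muscle phosphofructokinase, fell. Egln3, Hif1a, Bnip3l and Ddit4 fell as well, while Egln1 and Ndrg1 rose. Of the 34 rows 18 were higher and 6 lower in medium then IFNγ than in medium, against 22.7% and 21.2% of all tested genes (43.8% in either direction), and the median log2 fold change was 0.19 against -0.01 for all genes. The mitochondrial share of counts was 0.676% to 0.814% in medium then IFNγ and 0.841% to 1.24% in medium, without overlap, and its part was not tested.

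Both carriers rose under IFNγ. Slc2a1, the basal glucose carrier, had 153, 151, 171 and 152 CPM after 2, 6, 12 and 24 h of medium and then IFNγ, and 120.4, 107, 115 and 131 CPM in medium alone. The groups did not overlap, and the fitted difference was 0.40 ± 0.086 on the log2 scale (adjusted p = 0.000545). For Slc16a3, which exports lactate, the levels were 27.8, 29.5, 38.8 and 36.4 CPM against 27.0, 18.7, 21.2 and 28.2 CPM. These groups overlapped, with a difference of 0.46 ± 0.12 (adjusted p = 0.00403).

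In upper glycolysis 7 of 11 rows rose and 1 fell. Hk2 had 267, 271, 309 and 296 CPM under IFNγ and 141, 121, 162 and 159 CPM in medium, means of 286 ± 20.0 and 146 ± 18.7 CPM (SD, n = 4). All 4 IFNγ libraries lay far above all medium libraries, with a difference of 0.97 ± 0.069 (adjusted p = 4.36e-10). Hk2 lies on chromosome 6 at 82725025-82774454 of GRCm38. Hk1, the constitutive hexokinase, rose by less, from 278 ± 13.8 to 327 ± 16.6 CPM (0.23 ± 0.051, adjusted p = 0.000904). Per kilobase, the ratio of Hk2 to Hk1 went from 0.748 ± 0.0762 in medium to 1.25 ± 0.122 under IFNγ, with no overlap. Pfkp had 103, 102, 135 and 107 CPM against 74.3, 42.9, 72.0 and 76.5 CPM (0.74 ± 0.11, adjusted p = 1.09e-05), again apart. Pfkm went the other way, from 30.4 ± 1.72 to 22.4 ± 2.69 CPM (-0.45 ± 0.091, adjusted p = 0.000387), and Pfkl, the liver form and the most abundant of the 3, had 95.5 ± 13.8 and 98.1 ± 21.6 CPM and was not called. Pfkfb3 (0.50 ± 0.19, adjusted p = 0.0332), Aldoa (0.16 ± 0.062, adjusted p = 0.0391) and Tpi1 (0.22 ± 0.065, adjusted p = 0.00919) rose. Aldoc, the brain aldolase, was called on 8, 9, 2 and 6 counts against 5, 2, 0 and 0 counts (1.74 ± 0.67, adjusted p = 0.0390).

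Among the enzymes of lower glycolysis 3 of 6 rose: Pgam1, the phosphoglycerate mutase (0.36 ± 0.083, adjusted p = 0.00102), Eno1 (0.24 ± 0.085, adjusted p = 0.0241) and Pkm (0.20 ± 0.058, adjusted p = 0.00824). Gapdh, Pgk1 and the neuronal enolase gene Eno2 were not called. Eno2 had 5.37, 5.37, 3.70 and 3.00 CPM under IFNγ and 5.99, 7.68, 4.88 and 5.59 CPM in medium, with some overlap.

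The 2 lactate dehydrogenases moved apart. Ldhb had 9.63, 10.5, 12.0 and 11.3 CPM under IFNγ and 24.5, 29.1, 22.5 and 22.9 CPM in medium. Every IFNγ library lay far below every medium library, and the difference was -1.19 ± 0.11 (adjusted p = 3.83e-08), the lowest value among the members called. Ldhb lies on chromosome 6 at 142490249-142507957. Ldha had 863, 795, 1075 and 1075 CPM under IFNγ and 820.5, 546, 716 and 851 CPM in medium (0.38 ± 0.080, adjusted p = 0.000569), with overlapping groups. Per kilobase, Ldha exceeded Ldhb by a ratio of 14.4 ± 3.81 in medium, 41.5 ± 3.83 in medium then IFNγ, 34.3 ± 4.32 in TGFβ then IFNγ and 46.9 in the mix library, and by group means of 17.7 to 19.5 in the sequences that ended in TGFβ or began with a cytokine and ended in medium. Pdk1, at 25.0, 21.8, 47.1 and 35.4 CPM, was not called over all durations. It lay below medium in the 2 and 6 h libraries, above it at 12 h and close to it at 24 h.

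The mitophagy receptors diverged as well. Bnip3l fell from 93.8, 133, 81.9 and 90.0 CPM to 60.2, 65.9, 75.7 and 71.1 CPM, without overlap (-0.55 ± 0.11, adjusted p = 0.000246). Bnip3 had 60.0, 64.4, 124 and 96.6 CPM against 66.3, 62.1, 50.3 and 71.4 CPM (0.37 ± 0.15, adjusted p = 0.0489), with the rise in the 12 and 24 h libraries. The ratio of Bnip3 to Bnip3l per kilobase was 1.10 ± 0.237 in medium and 2.12 ± 0.535 under IFNγ.

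Of the other hypoxia targets 3 of 7 rose and 1 fell. Ndrg1, a stress-induced gene linked to differentiation, had 76.0, 89.2, 149 and 91.7 CPM against 58.5, 36.9, 54.6 and 61.2 CPM (0.90 ± 0.15, adjusted p = 3.69e-05), with no overlap. Ankrd37 (0.78 ± 0.21, adjusted p = 0.00465) rose in overlapping groups, and Adm was called on the counts given above (2.09 ± 0.72, adjusted p = 0.0211), with 3 of 4 libraries above their medium library. Ddit4 fell from 71.5, 60.8, 60.1 and 65.7 CPM to 37.7, 53.4, 38.0 and 24.0 CPM, without overlap (-0.79 ± 0.14, adjusted p = 9.86e-05). P4ha1 and P4ha2, the collagen prolyl hydroxylases, and Mxi1, a Myc antagonist, were not called.

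In oxygen sensing, Egln3 had 22.6, 23.9, 43.9 and 31.0 CPM under IFNγ and 49.8, 26.1, 46.9 and 49.0 CPM in medium (-0.53 ± 0.13, adjusted p = 0.00154), overlapping through the 6 h medium library. Hif1a fell slightly, from 339, 361, 323 and 357 CPM to 298, 305, 307 and 308 CPM, without overlap (-0.18 ± 0.059, adjusted p = 0.0173). Egln1 rose by 0.29 ± 0.10 (adjusted p = 0.0220).

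Without the replicate block, that is without a term for duration, 12 members were called in place of 24. Here and below, no share of all genes is given for fits without the block, with compared groups alone or without a single library. With the 2 and 6 h libraries alone 5 rose and 7 fell (33.7% of all genes called), and with the 12 and 24 h libraries alone 21 rose and 5 fell (34.3%). Called in both were the rises of Slc2a1, Hk1, Hk2, Pfkp and Ndrg1 and the falls of Ldhb, Ddit4, Bnip3l, Egln3 and Pfkm, whereas the fall of Pdk1 (-0.62) and of Hif1a (-0.23) was called with the short durations alone.

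**Figure D4:**
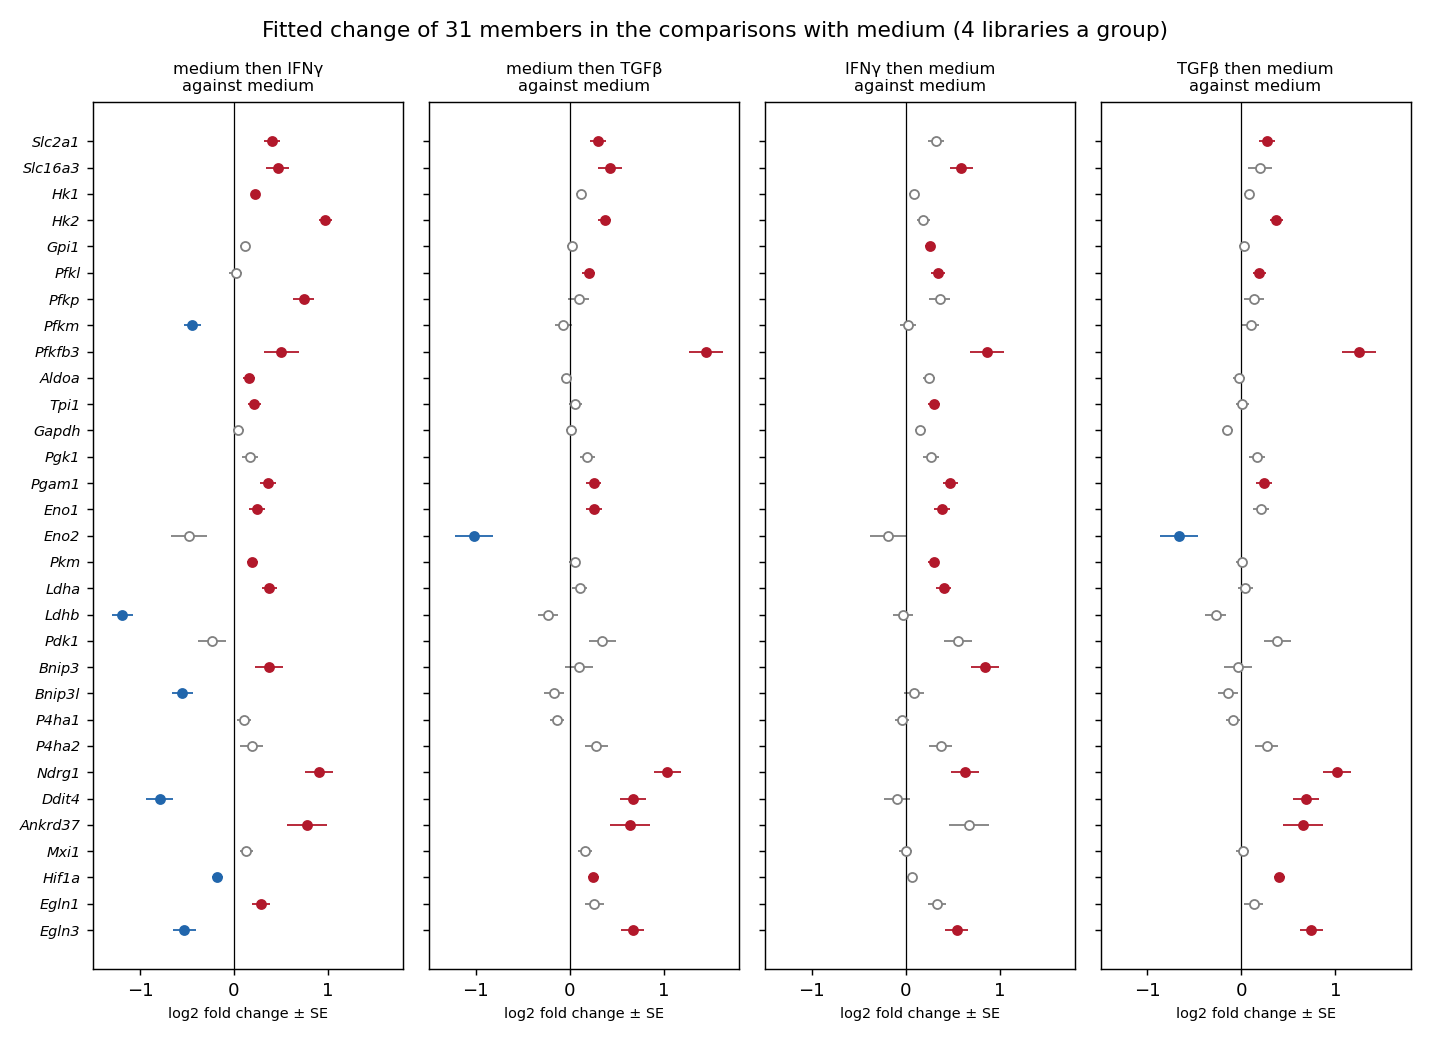
Fitted log2 fold change with its standard error (horizontal axes, shared scale) of 31 members (rows, by role) in the 4 comparisons with medium, 4 libraries a group, with filled red points called higher, filled blue points called lower and open points not called by edgeR. Adm and Aldoc, which lie near the count floor, are left out, and the second row of Aldoa is not drawn. Ldhb, Bnip3l, Pfkm and Hif1a are blue in medium then IFNγ and in none of the other panels, while Ndrg1 and Pfkfb3 are red in all 4.

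TGFβ in the last 24 h raised members of several roles. Pfkfb3 and Ndrg1 rose most among members well above the floor, Ddit4, Egln3 and Hif1a rose where they had fallen under IFNγ, and Eno2 fell. Counted over the members, 13 rows were higher and 1 lower in medium then TGFβ than in medium, against 11.7% and 11.6% of all tested genes, and the median log2 fold change was 0.19. IFNγ and TGFβ are both compared with the same medium libraries here. The summed melanocyte markers were 61.1 to 96.3 CPM under TGFβ and 164 to 290.3 CPM in medium, with Gpnmb and Mitf both called lower, and the endothelial gene Cdh5 was called higher (0.96 ± 0.17). Of the 5 endothelial markers the others were at or near 0, and the part of these shifts was not tested.

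Pfkfb3, on chromosome 2 at 11471433-11554077, had 6.15, 4.19, 10.1 and 10.9 CPM under TGFβ and 2.79, 1.85, 2.86 and 3.65 CPM in medium. The groups did not overlap, and the difference was 1.45 ± 0.18 (adjusted p = 5.39e-06). Hk2 had 159, 159, 223 and 217 CPM under TGFβ, overlapping with medium (0.37 ± 0.069, adjusted p = 0.000449), and Pfkl was called at 0.20 ± 0.072 (adjusted p = 0.0462), which made 3 of 11 rows of upper glycolysis. Both carriers rose. Slc2a1 reached 130.5, 128, 167 and 163 CPM (0.30 ± 0.086, adjusted p = 0.0129), and Slc16a3 reached 24.9, 22.8, 41.1 and 43.1 CPM (0.43 ± 0.12, adjusted p = 0.0153), both overlapping with medium.

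In lower glycolysis Pgam1, at 49.5, 42.0, 56.7 and 66.8 CPM against 49.1, 36.7, 43.7 and 49.1 CPM (0.25 ± 0.083, adjusted p = 0.0299), and Eno1 (0.25 ± 0.085, adjusted p = 0.0332) rose. Eno2 fell to 2.83, 3.80, 4.10 and 1.41 CPM, below all 4 medium libraries (-1.02 ± 0.20, adjusted p = 0.000844). None of Ldha, Ldhb and Pdk1 was called, and neither mitophagy receptor was. Ldhb had 21.2, 24.2, 19.0 and 20.1 CPM under TGFβ, close to medium.

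Among the other hypoxia targets 4 of 7 rose. Ndrg1 had 77.4, 68.3, 175 and 141 CPM, above all medium libraries (1.04 ± 0.15, adjusted p = 2.90e-05). Ddit4 rose to 132, 116, 96.7 and 75.4 CPM, also above all of them (0.67 ± 0.14, adjusted p = 0.00118), with its highest values in the short libraries. Ankrd37 (0.64 ± 0.21, adjusted p = 0.0332) and Adm (2.15 ± 0.70, adjusted p = 0.0294) were called with the rise in the 12 and 24 h libraries. Adm was above its medium library in 2 of 4 pairs. Of the oxygen-sensing genes, Egln3 rose to 54.6, 52.3, 91.8 and 79.6 CPM (0.67 ± 0.12, adjusted p = 0.000399) and Hif1a to 389, 389, 417 and 445 CPM (0.25 ± 0.059, adjusted p = 0.00384), both without overlap.

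The count of calls fell from 14 to 6 without the replicate block and to 5 with the compared groups alone. With the 2 and 6 h libraries alone 2 rose and 2 fell (7.67% of all genes called), and with the 12 and 24 h libraries 18 rose and 1 fell (24%). Pfkfb3, at 1.14 and 1.69, and Eno2, at -1.04 and -0.98, were called in both. Bnip3 was called lower in the short libraries (-0.34) and higher in the long ones (0.58), and Ddit4 was called higher with the short ones (0.90). Without the 12 h medium library 9 members were called, without the 12 or the 24 h library of medium then TGFβ 7 or 8.

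At 24 h after IFNγ had been washed away, 7 of 17 rows of glycolytic enzymes were called higher than in medium, and no member was called lower. The hexokinases, Aldoa, Gapdh and Pgk1 were not called. In IFNγ then medium 12 of 34 rows were higher than in medium and 0 lower, against 0.382% and 0.408% of all tested genes, and the median was 0.31 against 0.01. The genes that rose were Slc16a3, 4 of upper glycolysis (Pfkfb3, Pfkl, Tpi1, Gpi1), 3 of lower glycolysis (Pgam1, Eno1, Pkm), Ldha, Bnip3, Ndrg1 and Egln3. This count changed with the fit and with the libraries used. It was 0 without the replicate block and 0 with the 2 compared groups alone. With the 2 and 6 h libraries alone it was also 0, at 0.0779% of all genes. With the 12 and 24 h libraries it was 18, at 4.43%.

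Bnip3 had 88.6, 100.3, 136 and 143 CPM in IFNγ then medium and 66.3, 62.1, 50.3 and 71.4 CPM in medium, with no overlap (0.84 ± 0.15, adjusted p = 0.0172). Pfkfb3 had 2.99, 3.00, 5.88 and 9.48 CPM, with the high values at 12 and 24 h and overlap with medium (0.87 ± 0.18, adjusted p = 0.0287). Slc16a3, at 30.3, 30.6, 40.0 and 44.8 CPM, lay above all medium libraries (0.59 ± 0.12, adjusted p = 0.0272). Pgam1, at 56.8, 53.3, 62.8 and 77.7 CPM, did so too (0.48 ± 0.083, adjusted p = 0.0172), and so did Ldha, at 876, 915, 973 and 1101 CPM (0.41 ± 0.080, adjusted p = 0.0220). Ndrg1 had 68.9, 65.3, 113 and 89.6 CPM (0.64 ± 0.15, adjusted p = 0.0434), and Egln3 53.3, 44.0, 77.2 and 80.7 CPM, overlapping with medium (0.54 ± 0.12, adjusted p = 0.0389). The smaller rises were those of Eno1 (0.38 ± 0.085, adjusted p = 0.0385), Pfkl (0.35 ± 0.072, adjusted p = 0.0272), Tpi1 (0.31 ± 0.065, adjusted p = 0.0299), Pkm (0.30 ± 0.058, adjusted p = 0.0197) and Gpi1 (0.26 ± 0.052, adjusted p = 0.0220). Hk2 and Ldhb, which changed most while IFNγ was present among the members well above the floor, had 156, 150.1, 169.7 and 188 CPM and 24.8, 22.3, 24.3 and 25.6 CPM, and were not called.

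Single libraries moved this count further. Without the 6 h medium library 4 members rose, among them Bnip3 (adjusted p = 0.0205) and Pgam1 (adjusted p = 0.0373), while Pfkfb3, Ndrg1, Slc16a3, Egln3, Ldha, Eno1, Pfkl and Tpi1 lay between 0.0502 and 0.0983. It was 20 without the 2 h medium library, 2 without that of 12 h, 0 without the 6 h library of IFNγ then medium and 3 without either its 12 h or its 24 h library. The mitochondrial share was 1.03% to 1.31% in IFNγ then medium and 0.841% to 1.24% in medium, and its part was not tested.

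At 24 h after TGFβ had been washed away, Pfkfb3, Ndrg1, Egln3, Ddit4 and Hif1a were still above medium. In TGFβ then medium 10 rows were higher and 1 lower than in medium, against 14.5% and 14.5% of all tested genes, and the median was 0.18 against 0.00. The melanocyte markers summed to 37.6 to 84.3 CPM there, below medium, Cdh5 was called higher (1.00 ± 0.17), and the part of these shifts was not tested. Pfkfb3 had 6.02, 4.51, 8.83 and 7.12 CPM (1.25 ± 0.18, adjusted p = 2.29e-05) and Ndrg1 80.9, 81.6, 154 and 129.8 CPM (1.02 ± 0.15, adjusted p = 2.37e-05), both above all medium libraries. Ddit4 had 110.2, 104, 103 and 99.4 CPM, all above medium (0.69 ± 0.14, adjusted p = 0.000702). Egln3 rose to 56.8, 56.0, 101 and 79.5 CPM (0.74 ± 0.12, adjusted p = 9.33e-05) and Hif1a to 429.9, 432, 498 and 467 CPM (0.40 ± 0.059, adjusted p = 2.63e-05), again without overlap. Hk2 (0.37 ± 0.069, adjusted p = 0.000302), Ankrd37 (0.66 ± 0.21, adjusted p = 0.0237), Slc2a1 (0.27 ± 0.086, adjusted p = 0.0189), Pgam1 (0.24 ± 0.083, adjusted p = 0.0335) and Pfkl (0.19 ± 0.072, adjusted p = 0.0478) were the other members that rose. Eno2 fell to 4.47, 4.74, 3.67 and 2.47 CPM (-0.66 ± 0.20, adjusted p = 0.0138).

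Without the replicate block 5 members were called, and with the compared groups alone 6. The short libraries alone called 5 higher and 1 lower (12.2% of all genes) and the long ones 16 higher and 1 lower (27.7%), and the rises of Pfkfb3, Hk2, Ddit4, Hif1a and Ndrg1 were called in both. TGFβ withdrawn was also compared directly with TGFβ present, and no member was called, where edgeR called 0% of all genes, 3 members had an unadjusted p below 0.05 and DESeq2 called 0. Ddit4, Pfkfb3 and Ndrg1 were called against medium with TGFβ present and with TGFβ gone.

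IFNγ withdrawn against IFNγ present gave 10 members higher and 3 lower, against 20.8% and 20.8% of all tested genes (41.6% in either direction). Ldhb was higher after withdrawal by 1.16 ± 0.11 (adjusted p = 6.51e-08), Egln3 by 1.07 ± 0.12 (adjusted p = 6.90e-07), Bnip3l by 0.64 ± 0.11 (adjusted p = 5.80e-05) and Hif1a by 0.24 ± 0.059 (adjusted p = 0.00226), each without overlap between the groups. Pdk1 (0.79 ± 0.15, adjusted p = 0.000161), Ddit4 (0.70 ± 0.14, adjusted p = 0.000394), Pfkm (0.47 ± 0.091, adjusted p = 0.000257), Bnip3 (0.47 ± 0.15, adjusted p = 0.0135), Pfkl (0.33 ± 0.072, adjusted p = 0.000783) and Gpi1 (0.14 ± 0.052, adjusted p = 0.0322) were higher too. Hk2 was lower by -0.79 ± 0.069 (adjusted p = 1.24e-08), Pfkp by -0.38 ± 0.11 (adjusted p = 0.00729) and Hk1 by -0.14 ± 0.051 (adjusted p = 0.0347). This comparison shares the medium then IFNγ libraries with the comparison of IFNγ against medium. The summed fibroblast markers, 602 to 885 CPM after withdrawal against 195 to 234 CPM with IFNγ present, and the mitochondrial share, 1.03% to 1.31% against 0.676% to 0.814%, moved with it, and their part was not tested.

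**Figure D5:**
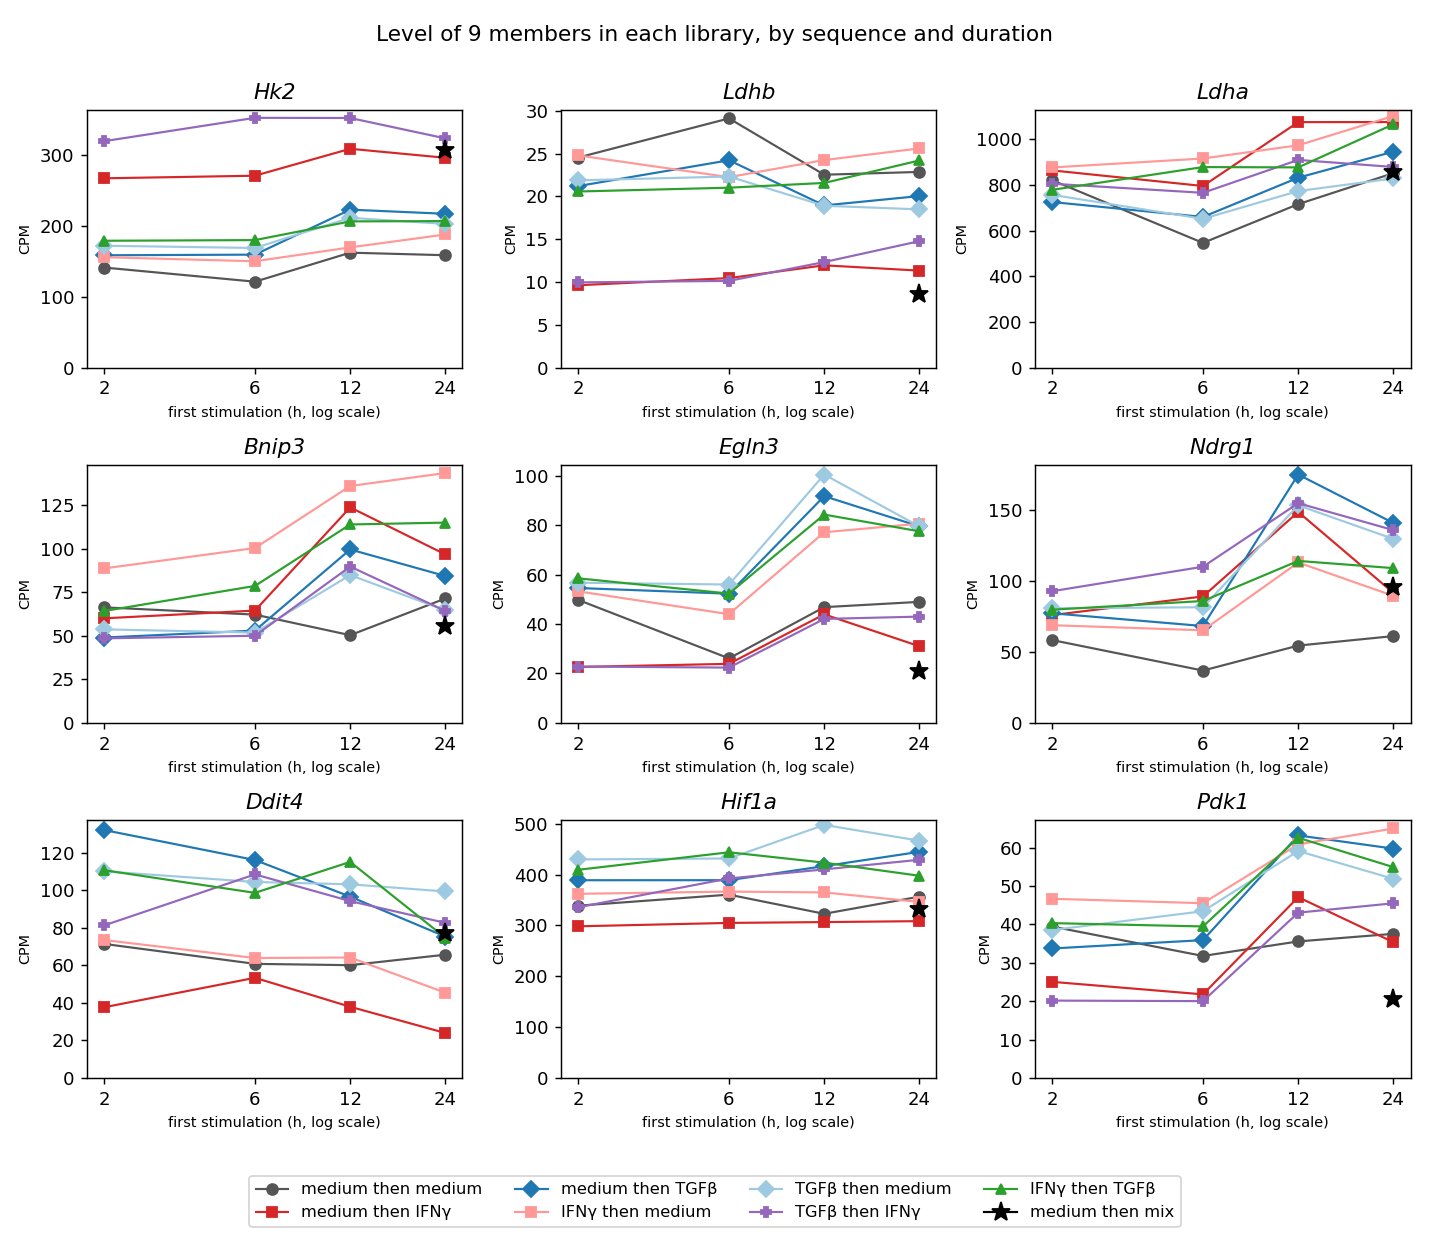
CPM (vertical axes, starting at 0) of 9 members in each library against the duration of the first stimulation in hours (horizontal axes, log scale), 1 line per sequence and a star for the single mix library. Hk2 is highest and Ldhb and Egln3 are lowest in the sequences that ended in IFNγ, Ddit4 is lowest in medium then IFNγ, and Bnip3, Egln3, Ndrg1 and Pdk1 step up between 6 and 12 h in the stimulated sequences.

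TGFβ given before IFNγ changed members at a share close to that of all genes. Compared with medium then IFNγ, TGFβ then IFNγ had 3 members higher and 3 lower, against 8.64% and 7.19% of all tested genes, and 3 higher and 5 lower with RLE size factors. With the compared groups alone 10 members were called. The melanocyte markers summed to 37.8 to 86.2 CPM after TGFβ and 107 to 178 CPM without it, Cdh5 was called higher (1.00 ± 0.18), and the part of these shifts was not tested. Ddit4 had 81.3, 109, 94.3 and 82.7 CPM after TGFβ and 37.7, 53.4, 38.0 and 24.0 CPM without it (1.29 ± 0.14, adjusted p = 7.61e-07), so that all 4 libraries lay above all others of the pair of groups. Hif1a had 336, 392, 410.2 and 429 CPM against 298, 305, 307 and 308 CPM (0.36 ± 0.059, adjusted p = 0.000156), and Hk2 had 319, 352, 352 and 323 CPM against 267, 271, 309 and 296 CPM (0.24 ± 0.068, adjusted p = 0.0161), both without overlap. Eno2 fell to 2.76, 2.65, 1.97 and 1.72 CPM (-0.93 ± 0.21, adjusted p = 0.00413), and Pkm (-0.22 ± 0.058, adjusted p = 0.00975) and Gpi1 (-0.17 ± 0.052, adjusted p = 0.0274) were lower with overlap. Without the replicate block the calls of Hk2 (adjusted p = 0.204), Pkm (0.163) and Gpi1 (0.285) were lost. Ldhb stayed low in both groups, at 9.97, 10.1, 12.3 and 14.8 CPM after TGFβ.

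IFNγ given before TGFβ left no member called against medium then TGFβ. edgeR called 0.0937% of all genes there, 0.067% of them lower, 4 members had an unadjusted p below 0.05, and DESeq2 called 0. Bnip3, at 64.2, 78.6, 114 and 115 CPM after IFNγ and 49.0, 52.9, 99.5 and 84.2 CPM without it, was higher at each of the 4 durations but did not pass (0.40 ± 0.15, adjusted p = 0.295).

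With both cytokines given in turn, 15 members differed by which came last. TGFβ then IFNγ against IFNγ then TGFβ gave 2 members higher, Hk2 and Pfkp, and 13 lower, against 16.4% and 16.2% of all tested genes. Hk2 was higher by 0.81 ± 0.069 (adjusted p = 1.07e-08), with 179, 179.9, 206 and 207 CPM when TGFβ came last, and Pfkp by 0.33 ± 0.11 (adjusted p = 0.0233). Egln3 was lower with IFNγ last, at 22.8, 22.4, 42.1 and 43.0 CPM against 58.5, 52.4, 84.3 and 77.6 CPM (-1.10 ± 0.12, adjusted p = 7.95e-07), and Ldhb was lower by -0.89 ± 0.11 (adjusted p = 3.75e-06), with 20.6, 21.0, 21.6 and 24.2 CPM when TGFβ came last. Neither pair of groups overlapped. Pfkfb3 (-0.77 ± 0.17, adjusted p = 0.00101), Pdk1 (-0.66 ± 0.15, adjusted p = 0.00130), Bnip3 (-0.56 ± 0.15, adjusted p = 0.00607), Bnip3l (-0.53 ± 0.11, adjusted p = 0.000610), Slc16a3 (-0.37 ± 0.12, adjusted p = 0.0236) and Pfkl (-0.36 ± 0.072, adjusted p = 0.000470) were lower too. Pfkm, P4ha2, Pkm, Gpi1 and Gapdh complete the 13, with differences from -0.35 to -0.17. Without the replicate block 5 members were called. The fibroblast markers summed to 149 to 201 CPM with IFNγ last and 497 to 667 CPM with TGFβ last, the melanocyte markers to 37.8 to 86.2 and 89.8 to 155 CPM, and the mitochondrial share was 0.624% to 0.936% and 0.977% to 1.25%. The part of these was not tested.

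The interactions ask whether the effect of the first cytokine depended on the second stimulus. For TGFβ first with IFNγ or medium second, no member was called by edgeR, which called 0.395% of all genes, and 14 had an unadjusted p below 0.05 while DESeq2 called 3. The difference was -0.66 ± 0.18 for Egln3 (adjusted p = 0.104) and 0.39 ± 0.16 for Ldhb (adjusted p = 0.312). For IFNγ first with TGFβ or medium second none was called either, at 0% of all genes, with 15 at an unadjusted p below 0.05 and 0 by DESeq2, and Egln3 had -0.56 ± 0.17 (adjusted p = 0.683). With the 12 and 24 h libraries alone 1 member was higher and 5 lower in the former, at 4.36% of all genes, and 5 were lower in the latter, at 3.47%. The 4 medium libraries enter both interactions.

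The single library that received medium for 24 h and then both cytokines at once has no replicate, and its values are given without a test. Its Hk2 level, 307 CPM, lay within the range of medium then IFNγ and above all 4 libraries of medium then TGFβ. Ldhb, at 8.65 CPM, Pfkm, at 16.3 CPM, and Egln3, at 21.1 CPM, were the lowest of the 29 libraries. Ddit4, at 77.5 CPM, lay above medium then IFNγ and inside the range of medium then TGFβ, and Hif1a, at 333 CPM, lay between those groups. Pdk1, at 20.6 CPM, and Bnip3, at 55.4 CPM, lay below all 4 libraries of medium then IFNγ.

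Other genes of the pathway, from lists kept apart from the members, were counted in the same comparisons. Under IFNγ, 2 of 6 tested carriers rose and 1 fell, with Slc2a6, a lysosomal glucose carrier, up by 4.46 ± 0.52 from a mean of 0.0758 CPM to 1.82 CPM (adjusted p = 5.18e-07). Of 11 other glycolytic isoenzymes 2 rose and 4 fell, with Bpgm, which diverts a glycolytic intermediate to bisphosphoglycerate, at -2.18 ± 0.24. In the pentose phosphate pathway 4 of 7 rose and 1 fell (G6pdx 0.35, Pgd 0.27), and among 13 genes of pyruvate entry into mitochondria 2 rose and 3 fell, led by Pdk2 (-1.77 ± 0.25). Of 9 glycogen genes 1 rose and 2 fell. Of 9 other oxygen-sensing genes 1 rose and 6 fell, with Epas1, which encodes HIF-2α, at -2.83 ± 0.27, from 4.76 ± 1.55 to 0.655 ± 0.135 CPM. Of 30 other hypoxia targets 10 rose and 5 fell. Angptl4 rose by 1.35 ± 0.33, whereas Vegfa, the angiogenic factor, fell from 1243 ± 427 to 523 ± 125 CPM (-1.24 ± 0.11, adjusted p = 7.66e-09). In the Myc network, whose factors bind the related element CACGTG, 8 of 10 rose and 1 fell, with Mlxipl at 3.18 and Mxd1 at 1.98, while Mxd4 fell (-1.14). All of these counts stand beside 22.7% of all genes higher and 21.2% lower.

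Under TGFβ, against 11.7% of all genes higher and 11.6% lower, the other carriers gave 0 higher and 3 lower of 6, the isoenzymes 2 and 2 of 11, the pentose phosphate pathway 2 and 0 of 7, pyruvate entry 3 and 3 of 13, glycogen 2 and 3 of 9, oxygen sensing 0 and 4 of 9, hypoxia targets 11 and 4 of 30 and the Myc network 1 and 0 of 10. Stc1 fell (-1.03 ± 0.26), Epas1 fell (-0.91 ± 0.23) and Myc rose (0.82 ± 0.12). In TGFβ then medium, where 14.5% of all genes were higher and 14.5% lower, the same lists gave the following counts. They were 0 and 3, 4 and 3, 2 and 0, 4 and 2, 2 and 3, 0 and 4, 8 and 5, and 1 and 2 higher and lower. In IFNγ then medium 12 members rose, and 0.382% of all genes were called higher and 0.408% lower. Eno1b (0.48) of the 11 isoenzymes rose there, as did Pgm1 (0.55) and Gys1 (0.32) of the 9 glycogen genes. Of the 30 hypoxia targets Fam162a (0.46) and Car12 (0.43) rose, and no other gene of the lists passed. Eno1b is the copy of the member Eno1 named above, and reads may have been split between them. With the duration, 8 of the 30 other hypoxia targets rose and 2 fell, against 5.87% and 5.72% of all genes. Among them Tfrc had 0.19 ± 0.043 per doubling and Hilpda -0.19 ± 0.046. The isoenzymes, carriers and pentose phosphate genes gave 0 calls with duration.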

How the data were processed

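The deposited values are raw read counts by gene, whole numbers in a single table with a column for each of the 29 libraries. HISAT and the build GRCm38 appear in the submitters' processing notes. Counting tool, annotation and strand setting were not given in the sources used here. Per the labels' protocols, stranded mRNA libraries were made from RNA with an integrity number above 8. Total counts were 17179530 to 23668015 a library, and 0 columns lacked a sample. No libraries of 1 group agreed within sampling noise (lowest chi-square per degree of freedom 3.96 over 42 pairs).

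The analysis used edgeR 4.0.16 in R 4.3.3: filterByExpr with a minimum count of 10, TMM scaling, and glmQLFit and glmQLFTest on all 29 libraries with a term per group and the duration of the first stimulation as a factor (18 residual degrees of freedom). The trend model had log2 duration in place of the factor (20 degrees of freedom). P-values were adjusted by Benjamini-Hochberg across the 14935 genes tested, called below 0.05, and came from edgeR unless DESeq2 1.42.0 is named. CPM values use TMM-scaled library sizes, and log2 CPM a prior count of 2. Errors after fold changes are standard errors and those after CPM means are SDs. Simulated counts were used to check only the comparison of IFNγ then medium with medium. They held changes in chosen genes and no effect of duration, so calls that hinge on duration were not checked. Exon lengths came from GENCODE M21, which held 28182 of the identifiers. Figures were drawn with matplotlib 3.10.9 in Python 3.11.15.

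The labels carry no replicate numbers, so libraries were numbered by the duration in their label, and that number served as the replicate block. Deviations of same-duration libraries from their group means correlated above 0.1 at every duration for TGFβ before IFNγ (0.106 to 0.288), IFNγ before TGFβ (0.138 to 0.333) and TGFβ withdrawn against present (0.371 to 0.499). In the other comparisons the lowest correlation was -0.0409 to 0.0768. For IFNγ first, whose member calls were all lost without the block, the correlations ran only from -0.0409 to 0.0536.

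Members and lists were chosen with earlier results of these data known. Up to 10 called members with the largest change were named per comparison. Values of every library were given for up to 2 members a role with the largest change, and for Ldha, Bnip3 and Hif1a. The library values of Hk2, Pfkp and Ndrg1 and smaller called changes were added after they were seen. Alternatives were DESeq2, RLE scaling, no filter, no replicate block, the compared groups alone, and leaving out libraries. One further promoter element and 1 further gene of the pathway lists are not reported here.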

Additional observations from a re-analysis of the deposited data

Results flagged for a closer look

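The values of the 34 tested rows, and the mean level of the members, in the 7 groups of 4 libraries were searched for a library far from the rest, and 6 of 245 groups of values held one, where chance gives about 1 in 20. Aldoc, at 0.575 CPM in the 24 h library of IFNγ then medium, lay above the 0.156 to 0.222 CPM of the others, on 12 counts. Egln3 had 26.1 CPM in the 6 h medium library and 46.9 to 49.8 CPM in the other medium libraries. Slc2a1 had 171 CPM in the 12 h library of medium then IFNγ and 151 to 153 CPM in the others, and Pfkp had 135 CPM in the same library and 102 to 107 CPM in the others. Pfkp also had 42.9 CPM in the 6 h medium library, where the others had 72.0 to 76.5 CPM. P4ha1 had 199 CPM in the 12 h library of TGFβ then IFNγ and 158 to 165 CPM in the others.

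The step of the 12 and 24 h libraries against the 2 and 6 h libraries differed between the stimulated sequences and medium for 3 members, Pdk1, Bnip3 and Bnip3l, by the test of the difference itself, which was added after seeing the data and rests on the 4 medium libraries.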

How the results depend on the processing

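Counts are members called. For the fits without the replicate block, with the compared groups alone or with libraries left out, the share of all genes called is not given, here or above. A change particular to the members therefore cannot be told there from one in all genes. Without the replicate block they were 12 of 24 for IFNγ second, 6 of 14 for TGFβ second, 0 of 12 for IFNγ first, 5 of 11 for TGFβ first, 3 of 6 for TGFβ before IFNγ and 5 of 15 for the order. With only the groups compared they were 5 for TGFβ second, 0 for IFNγ first, 6 for TGFβ first, 10 for TGFβ before IFNγ and 1 in place of 0 for IFNγ before TGFβ. With only the 2 and 6 h libraries they were 12 for IFNγ second, 4 for TGFβ second, 0 for IFNγ first and 6 for TGFβ first. With only the 12 and 24 h libraries they were 18 for IFNγ first, 17 for TGFβ first, and 6 and 5 in place of 0 for the interactions of TGFβ first with IFNγ second and of IFNγ first with TGFβ second. The former was 2 with no filter and 3 with DESeq2. The cause was not tested.

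Leaving out single libraries or durations gave 14 to 26 for IFNγ second, 6 to 21 for TGFβ second, 0 to 20 for IFNγ first, 7 to 15 for TGFβ first, 4 to 7 for TGFβ before IFNγ, 0 for IFNγ before TGFβ, 10 to 15 for the order, 10 to 13 for IFNγ withdrawn, 0 for TGFβ withdrawn, 0 to 6 and 0 to 2 for the interactions, 14 to 23 for the trend (21) and 0 to 8 for the difference of steps (3). The lowest counts came without all 12 h libraries for IFNγ second (14) and TGFβ second (6, and 8 without all 24 h). For TGFβ first it was 7 without the 12 h library of TGFβ then medium, all 12 h or all 24 h libraries. For IFNγ first it was 0 without all 6, 12 or 24 h libraries and 4 without the 6 h medium library. The first interaction reached 6 and the second 2 without the 2 h medium library.

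Without the 6 h medium library IFNγ second had 15 higher and 5 lower, TGFβ second 13 and 1, and TGFβ first 11 and 2. The trend gave 18 calls as the mean of 7 slopes, 25 as a step and 24 without the medium libraries. Adm under TGFβ second reversed to -2.24 with only the 2 and 6 h libraries (adjusted p = 0.309). Of the named members' fold changes under alternatives, 1424 kept direction and call and 258 lost the call. Counts of reads below about the filter's minimum of 10 limit Adm, Aldoc and Car9.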
